A study of Homo sapiens with 18 samples.

Results

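Genes of major histocompatibility complex (MHC) class I presentation and of the immune checkpoint ligand PD-L1 were followed in OVCAR-3 cells given a bromodomain and extra-terminal (BET) inhibitor. They were chosen by name and located through the Ensembl gene identifiers of the count tables: HLA-B, HLA-C, HLA-E, B2M, TAP1, TAP2, TAPBP, NLRC5 and CD274, which is 9 of the 58825 genes counted. All of them were found in all 18 libraries, and 8 had enough counts to be tested. TAP2 had 0 or 1 count in every library and was not tested.

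OVCAR-3 is an established line of high-grade serous ovarian carcinoma. The cells were kept in stripped medium under DMSO (the vehicle), 1 µM i-BET858 or 1 µM i-BET151 for 4 or 24 h, and poly-A RNA of 3 replicates of each of these 6 groups was sequenced. The study describes i-BET858 as a bivalent pan-BET inhibitor and i-BET151 as an earlier compound of the same class. It calls the replicates biological, but the labels do not say whether they were separate cultures, so the p-values measure the spread between these libraries of a single cell line.

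MHC class I molecules show peptides from inside the cell to CD8 T cells. Each is a heavy chain (HLA-B and HLA-C are classical, HLA-E is the non-classical ligand of the natural killer receptor NKG2A) bound to β2-microglobulin, the product of B2M. The peptides are cut by the proteasome or its interferon-inducible form, the immunoproteasome, carried into the endoplasmic reticulum by the TAP1-TAP2 transporter, trimmed by ERAP1 and ERAP2, and loaded with the help of tapasin, the product of TAPBP. NLRC5 is a transactivator of class I genes that acts through a conserved promoter module (the S, X1, X2 and Y boxes), and interferon γ raises the same genes through JAK-STAT signalling and IRF1. CD274 encodes PD-L1, which binds PD-1 on T cells and dampens them, and is itself an interferon γ target.

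RefSeq promoters (GRCh38.p14, 250 bases before to 50 after a start site) matched 7 of the 9 members. The 150 bases before the start site are shown for 4 of them. HLA-B, HLA-C and B2M are shown because their transcripts rose under i-BET858 at both times, and TAPBP because its transcript fell at 24 h. Capitals mark 4 short motifs searched on both strands: the X2 box (TGACG), the Y box (ATTGG, or CCAAT on the opposite strand), the core of the interferon-stimulated response element (ISRE, GAAANNGAA) and the interferon γ-activated site (GAS element, TTCNNNGAA). HLA-B lies at chr6:31357180-31357329 (minus strand), HLA-C at chr6:31272093-31272242 (minus strand), B2M at chr15:44711367-44711516 (plus strand) and TAPBP at chr6:33314079-33314228 (minus strand).
HLA-B: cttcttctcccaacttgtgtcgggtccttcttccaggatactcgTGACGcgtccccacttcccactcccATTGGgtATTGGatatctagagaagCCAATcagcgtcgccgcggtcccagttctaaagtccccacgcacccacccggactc
HLA-C: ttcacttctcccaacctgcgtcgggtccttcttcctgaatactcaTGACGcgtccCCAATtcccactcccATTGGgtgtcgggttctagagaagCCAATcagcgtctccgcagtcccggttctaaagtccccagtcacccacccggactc
B2M: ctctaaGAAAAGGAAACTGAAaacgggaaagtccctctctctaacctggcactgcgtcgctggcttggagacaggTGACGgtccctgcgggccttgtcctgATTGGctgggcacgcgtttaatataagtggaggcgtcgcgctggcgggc
TAPBP: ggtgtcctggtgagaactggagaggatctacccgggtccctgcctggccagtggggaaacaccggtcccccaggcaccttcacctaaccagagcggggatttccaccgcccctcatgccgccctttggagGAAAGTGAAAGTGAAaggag

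The HLA-B, HLA-C and B2M stretches each held an X2 box followed by at least 1 Y box. B2M also held a pair of overlapping ISRE cores, from -144 to -136 and from -138 to -130 relative to the start site. TAPBP held a pair of overlapping ISRE cores close to the start, from -20 to -12 and from -14 to -6, and none of the other motifs in its 300 bases. Among the promoters not shown, TAP1 had 2. The first held overlapping ISRE cores from -133 to -125 and from -127 to -119 and, upstream of them, a Y box, and the second a GAS match from -189 to -181. TAP2 held an ISRE core from -58 to -50 and an X2 box from -35 to -31. CD274 held a GAS match from -125 to -117 and overlapping ISRE cores from -207 to -199 and from -201 to -193. Over all 35116 RefSeq promoters of the same length, 24.6% held the X2 letters, 34.6% the Y letters, 8.1% the ISRE core and 7.7% the GAS letters. A match of letters is not evidence of a bound site.

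The members lie in 4 regions of GRCh38. The MHC region of chromosome 6 holds 6 of them (GENCODE 44 positions): HLA-E at chr6:30489509-30494194, HLA-C at chr6:31268749-31272130, HLA-B at chr6:31353872-31367067, TAP2 at chr6:32821833-32838739, TAP1 at chr6:32845209-32853816 and TAPBP at chr6:33299694-33314284. B2M is at chr15:44711358-44718851, NLRC5 at chr16:56989485-57083531 and CD274 at chr9:5450503-5470566. Values are summed over all exons of a gene, UTRs included. The HLA genes resemble each other, but few stretches of 100 bases were identical in the GENCODE 44 transcripts. Of their windows, 0.00% (HLA-B), 0.13% (HLA-C) and 0.50% (HLA-E) occurred in any of 38 other HLA genes. Only exact matches were counted. Whether reads from near-identical stretches were lost or placed on another HLA gene was not tested, and this limit also holds for the HLA levels below. TAP2 shares 2023 exon bases (19.53% of its exon length) with an unnamed protein-coding gene on the same strand, which had 0 counts. A gene counter that sets aside reads on 2 genes would lose reads there. The part of this overlap in the low counts of TAP2 was not tested. HLA-B shares 1421 exon bases (30.74%) with DHFRP2, a pseudogene on the same strand, and 671 (14.51%) with an unnamed pseudogene on the opposite strand, both with 0 counts. Whether reads were set aside there was not tested. TAP1 and TAPBP overlap opposite-strand transcripts over 14.18% and 21.01% of their exon length, and the strand setting of the counting is not given in the sources used here.

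Library totals ranged from 27323969 to 46299994 counts, and a count of 0 allows up to 3 counts, which is 0.0653 to 0.1095 CPM (counts relative to a TMM-scaled library size over the 18 libraries) and covers counting error only. Libraries of replicate 3 detected 17817 to 20642 genes, against 23674 to 24947 for replicates 1 and 2, so that members' results are also given without replicate 3 where this changed a call. All 10 markers of serous carcinoma cells (PAX8, WT1 and MUC16 among them) had counts in every library. Their summed level was 8680 to 10100 CPM under DMSO, 11600 to 12200 under i-BET858 and 9700 to 10300 under i-BET151 at 4 h, and 8670 to 10200, 6800 to 7170 and 6800 to 7290 at 24 h. Of the 10, 3 rose and none fell under i-BET858 at 4 h (14.5% and 16.3% of all genes tested), none passed under i-BET151, and 1 rose and 4 fell with each inhibitor at 24 h (20.5% and 21.3% for i-BET858, 17.2% and 16.6% for i-BET151). Of 12 leukocyte markers, MS4A1 was at 0 in 18 libraries, CD68 in 17, CD3E in 16 and PTPRC in 9, whereas CD4 (11 to 128 counts), CD8A (9 to 59), CD14 (2 to 66) and HLA-DRA (24 to 132) had counts in every library. Summed over the list, leukocyte markers gave 41.7 to 61.6 CPM under DMSO, 61.2 to 83.3 under i-BET858 and 52.9 to 60.9 under i-BET151 at 4 h, and 43.5 to 50.5, 36.2 to 48.8 and 31.4 to 50.7 at 24 h. Most of this was CD74 (28.8 to 75.8 CPM), the class II invariant chain, which carcinoma cells can express. Fibroblast markers (7 genes, mostly COL1A1, with DCN and COL3A1 at 0 in 14 libraries each) summed to 23.3 to 42 CPM under DMSO, 31.6 to 48.1 under i-BET858 and 27.7 to 51.2 under i-BET151 at 4 h, and 28.2 to 35.9, 21.5 to 32 and 23.5 to 28.2 at 24 h. Endothelial markers (4 genes, with CDH5 at 0 in 6 libraries, and KDR with 21 to 409 counts and VWF with 18 to 159) summed to 3.38 to 6.63, 9.23 to 15.9 and 4.58 to 12.4 CPM at 4 h, and 3.67 to 7.04, 2.17 to 3.45 and 1.73 to 5.76 at 24 h. Of 3 endothelial genes tested at 4 h, 1 rose with each inhibitor (14.5% of all genes for i-BET858 and 7.81% for i-BET151). At 24 h, 1 of 3 fibroblast genes tested fell under i-BET858 (21.3%) and 1 of 5 leukocyte genes under i-BET151 (16.6%). No other gene of these 3 lists passed against DMSO. The i-BET858 libraries did not overlap DMSO in the serous and endothelial sums at either time, nor did those of i-BET151 in the serous sum at 24 h. The part of these markers in the results was not tested.

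Per kilobase of exon, B2M was the most abundant member in vehicle-treated cells at 4 h, with 99.5 ± 13.4 CPM per kb (SD, n = 3). HLA-C followed with 41.5 ± 6.30, HLA-E with 19.99 ± 2.46 and HLA-B with 7.29 ± 0.425. The loading and transport genes were lower, with 4.83 ± 1.26 for TAPBP and 1.61 ± 0.444 for TAP1. NLRC5 (0.128 ± 0.0332) and CD274 (0.0806 ± 0.0390) were the lowest of the 8 tested members, their libraries overlapped each other, and CD274 rested on 5 to 18 counts in a library. The libraries of all other neighbours in this order lay apart. In vehicle-treated OVCAR-3 cells at 4 h, the light and heavy chain transcripts were thus the highest of the tested members, and NLRC5 and PD-L1 mRNA the lowest.

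**Figure D1:**
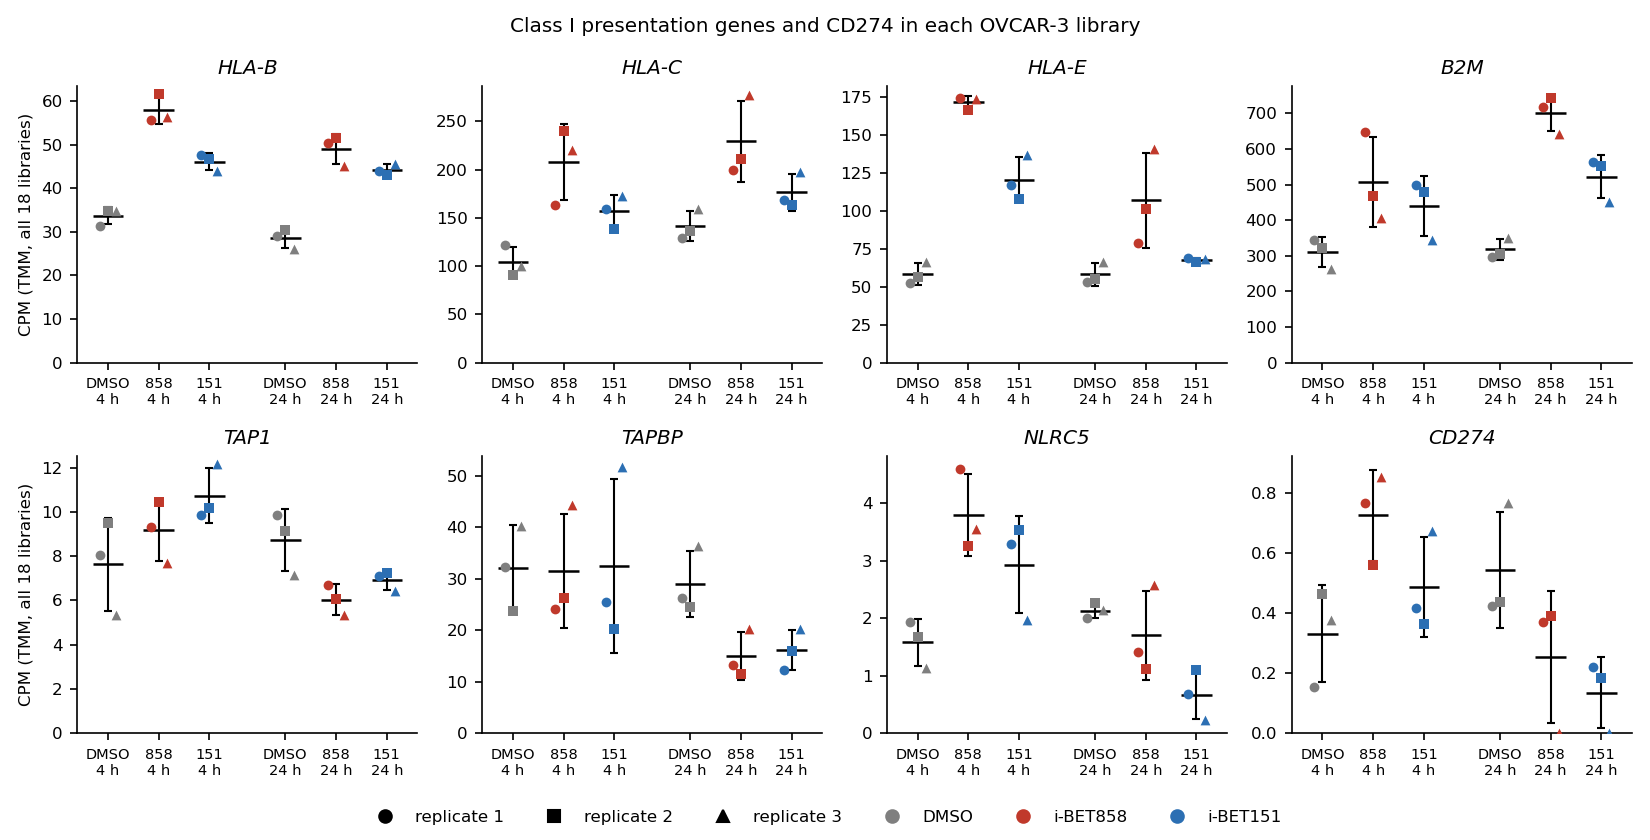
CPM (vertical axes, TMM scaling over 18 libraries) of the 8 tested members in each library, by group (horizontal axes). Points are libraries, with the shape giving the replicate, and bars are means ± SD (n = 3). HLA-B and HLA-C lie above DMSO in every inhibitor library of the same time point, while TAPBP lies below DMSO in every inhibitor library at 24 h.

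At 4 h, 5 of the 8 members rose under i-BET858 and none fell, against 14.5% and 16.3% of the 17192 genes tested. With i-BET151, 3 rose and none fell, against 7.81% and 8.43%. With the replicate block, B2M (0.491, edgeR adjusted p = 0.000395) and NLRC5 (0.882, 0.0255) rose there too, against 15.6% of all genes. The HLA-B and HLA-C calls under i-BET151 were lost without single libraries, as given below. The median log2 fold change of the 8 members was 0.89 under i-BET858 and 0.52 under i-BET151, where all genes had medians of 0.02 and 0.01. At 24 h, 4 members rose and 2 fell under i-BET858 (20.5% and 21.3% of 17157 genes tested), and 2 rose and 2 fell under i-BET151 (17.2% and 16.6%). The medians were then 0.14 and −0.08, against −0.01 and 0 for all genes. In range, all 3 libraries of i-BET858 lay above all 3 of DMSO for 6 members at 4 h (20.9% of genes tested) and below for none (23.7%). At 24 h, 4 lay above (28.2%) and 3 below (27%). For i-BET151, 5 lay above at 4 h (17.4%) and none below (19.2%), and at 24 h 3 lay above (24.9%) and 3 below (24%). Both inhibitors were compared with the same DMSO libraries, so these counts share their controls.

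HLA-E responded most at 4 h. It had 52.6, 56.1 and 66.5 CPM under DMSO (replicates 1 to 3), 174, 167 and 174 under i-BET858 and 117, 108 and 137 under i-BET151. All inhibitor libraries were above all vehicle libraries, and those of i-BET858 above those of i-BET151. The log2 fold change was 1.56 ± 0.131 (SE) under i-BET858 (2.95-fold, edgeR adjusted p = 9.07e-06) and 1.04 ± 0.130 under i-BET151 (edgeR adjusted p = 0.000337). At 24 h it had 52.8, 55.0 and 66.4 CPM under DMSO, 78.8, 101 and 141 under i-BET858 and 68.7, 66.4 and 68.5 under i-BET151. The i-BET858 libraries were still above DMSO (0.84 ± 0.186, edgeR adjusted p = 0.00416), whereas those of i-BET151 touched the highest DMSO library (0.20 ± 0.186, edgeR adjusted p = 0.45). Without replicate 3, HLA-E also passed under i-BET151 at 24 h (0.29, edgeR adjusted p = 0.0352).

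HLA-B, a classical heavy chain, rose with both inhibitors at both times. It had 31.4, 34.7 and 34.9 CPM under DMSO at 4 h, 55.8, 61.7 and 56.4 under i-BET858 and 47.6, 46.8 and 44 under i-BET151. By 24 h its levels were 29.0, 30.5 and 26.1 CPM under DMSO, 50.4, 51.5 and 45.2 under i-BET858 and 43.9, 43.1 and 45.6 under i-BET151. All inhibitor libraries were above all DMSO libraries at both times. With i-BET858 the log2 fold change was 0.79 ± 0.115 at 4 h (edgeR adjusted p = 0.000372) and 0.74 ± 0.100 at 24 h (0.000179). With i-BET151 it was 0.45 ± 0.115 (edgeR adjusted p = 0.0204) and 0.61 ± 0.100 (0.000933). The call under i-BET151 at 4 h rested on narrow margins: it was lost without any 1 of DMSO replicates 1, 2 and 3 and i-BET151 replicates 1 and 2 (0.40 to 0.48, edgeR adjusted p of 0.0503 to 0.0906), and with no filter on low counts (0.45, 0.0707).

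HLA-C, the most abundant of the heavy chains measured here, had 121, 90.5 and 100.5 CPM under DMSO at 4 h, 163, 239.5 and 219.9 under i-BET858 and 159, 138 and 173 under i-BET151. All inhibitor libraries were above DMSO. After 24 h HLA-C had 129, 136 and 159 CPM under DMSO, 199.6, 211 and 277 under i-BET858 and 168, 163 and 198 under i-BET151. The inhibitor libraries were again above DMSO, by a small margin for i-BET151. With i-BET858 HLA-C rose by a log2 fold change of 1.00 ± 0.166 at 4 h (edgeR adjusted p = 0.000876) and 0.66 ± 0.149 at 24 h (0.00471). With i-BET151 it rose by 0.59 ± 0.165 at 4 h (edgeR adjusted p = 0.0329), a call that was lost without DMSO replicate 2 or 3, without i-BET151 replicate 1 or 3, and without replicate 3 of all groups (0.48 to 0.58, edgeR adjusted p of 0.0711 to 0.124). At 24 h under i-BET151 it was 0.29 ± 0.148 (edgeR adjusted p = 0.156), which passed with the replicate number as a block (0.30, edgeR adjusted p = 0.00673) and without replicate 3 (0.28, edgeR adjusted p = 0.00396).

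B2M, the shared light chain, rose under i-BET858 at both times and under i-BET151 at 24 h. It had 345, 322 and 264 CPM under DMSO at 4 h, 649, 467 and 407 under i-BET858 and 498, 479 and 344 under i-BET151. Only the lowest i-BET151 library lay within the DMSO range. The log2 fold change was 0.71 ± 0.190 under i-BET858 (edgeR adjusted p = 0.0141), a call lost without DMSO replicate 3 (0.60, edgeR adjusted p = 0.0639), without i-BET858 replicate 1 (0.50, 0.0664) and with scaling to total library size (0.56, 0.0619). It was 0.50 ± 0.189 under i-BET151 (edgeR adjusted p = 0.101, or 0.000395 with the replicate block and 0.0129 without replicate 3). At 24 h it had 297, 306 and 351 CPM under DMSO, 718, 742 and 643.5 under i-BET858 and 564, 552 and 452 under i-BET151. The 3 groups did not overlap, in the order i-BET858, i-BET151 and DMSO. B2M was then 1.1 ± 0.116 (2.14-fold) higher under i-BET858 (edgeR adjusted p = 3.36e-05) and 0.69 ± 0.115 (1.62-fold) higher under i-BET151 (0.000999).

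TAP1, a subunit of the peptide transporter, did not rise with the chains it serves. It had 8.05, 9.51 and 5.36 CPM under DMSO at 4 h, 9.34, 10.5 and 7.70 under i-BET858 and 9.86, 10.2 and 12.2 under i-BET151. The i-BET858 range overlapped DMSO and that of i-BET151 lay just above it, and neither passed (0.27 ± 0.233, edgeR adjusted p = 0.434, and 0.49 ± 0.233, 0.19). After 24 h TAP1 had 9.88, 9.13 and 7.17 CPM under DMSO, 6.71, 6.06 and 5.32 under i-BET858 and 7.10, 7.24 and 6.43 under i-BET151. The i-BET858 libraries were all below DMSO, and TAP1 fell by 0.57 ± 0.177 on the log2 scale (edgeR adjusted p = 0.0239). This call was lost without DMSO replicate 1 or 2 or i-BET858 replicate 2 or 3 (−0.58 to −0.47, edgeR adjusted p of 0.064 to 0.104), with no filter on low counts (−0.54, 0.118) and in the fit of 18 libraries (−0.53, 0.0527). With i-BET151 the value was −0.35 ± 0.176 (edgeR adjusted p = 0.151), and −0.45 without replicate 3 (0.0129).

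TAPBP, tapasin, was unlike the chains in the same way at 24 h. At 4 h it had 32.3, 23.6 and 40.3 CPM under DMSO, 24.1, 26.3 and 44.3 under i-BET858 and 25.5, 20.2 and 51.7 under i-BET151. The groups overlapped, and replicate 3 was the highest library in each, with log2 fold changes of −0.02 ± 0.347 and 0.02 ± 0.347 (edgeR adjusted p = 0.976 and 0.982). By 24 h TAPBP had 26.2, 24.5 and 36.4 CPM under DMSO, 13.3, 11.5 and 20.3 under i-BET858 and 12.2, 16 and 20.1 under i-BET151. All inhibitor libraries were below all DMSO libraries. TAPBP fell by 0.99 ± 0.256 under i-BET858 (edgeR adjusted p = 0.00949) and by 0.87 ± 0.255 under i-BET151 (0.0225). The i-BET151 call was lost without DMSO replicate 3 or i-BET151 replicate 1 or 2 (−0.86 to −0.65, edgeR adjusted p of 0.0686 to 0.0878) and in the fit of 18 libraries (−0.85, 0.0585), but in replicates 1 and 2 alone it was −0.89 (0.000185).

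NLRC5, the class I transactivator, was at low levels, rose under i-BET858 at 4 h and fell under i-BET151 at 24 h. At 4 h it had 1.94, 1.68 and 1.13 CPM under DMSO, 4.6, 3.25 and 3.55 under i-BET858 and 3.30, 3.53 and 1.97 under i-BET151. All inhibitor libraries lay above DMSO. The log2 fold change was 1.27 ± 0.331 under i-BET858 (2.40-fold, edgeR adjusted p = 0.0129), which was lost without DMSO replicate 3 (1.07, edgeR adjusted p = 0.0518) or i-BET858 replicate 1 (1.11, 0.0549). It was 0.88 ± 0.330 under i-BET151 (edgeR adjusted p = 0.098, or 0.0255 with the replicate block and 0.034 without replicate 3). After 24 h NLRC5 had 2.0, 2.26 and 2.13 CPM under DMSO, 1.42, 1.11 and 2.57 under i-BET858 and 0.684, 1.09 and 0.233 under i-BET151. The i-BET151 libraries were all below DMSO, whereas replicate 3 of i-BET858 was above it. NLRC5 fell by 1.69 ± 0.526 under i-BET151 (edgeR adjusted p = 0.0296). That call was lost without any 1 of DMSO replicates 1, 2 and 3 and i-BET151 replicate 1 (−1.74 to −1.66, edgeR adjusted p of 0.0536 to 0.0759), and it passed in replicates 1 and 2 alone (−1.31, edgeR adjusted p = 0.00276). With i-BET858 it was −0.37 ± 0.502 (edgeR adjusted p = 0.601), and −0.77 without replicate 3 (0.0312).

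CD274 did not pass in any comparison and had few counts. Its counts at 4 h were 5, 18 and 12 under DMSO, 21, 17 and 30 under i-BET858 and 12, 10 and 24 under i-BET151. At 24 h they were 14, 13 and 24 under DMSO, 17, 14 and 0 under i-BET858 and 9, 6 and 0 under i-BET151. Scaled to CPM, the i-BET858 libraries lay above DMSO at 4 h (0.558 to 0.852 against 0.154 to 0.464), and both inhibitors lay below DMSO at 24 h (0 to 0.389 and 0 to 0.220, against 0.424 to 0.764). Both zeros at 24 h were in replicate 3. The log2 fold changes at 4 h were 1.12 ± 0.635 under i-BET858 (95% interval −0.27 to 2.52, edgeR adjusted p = 0.214) and 0.54 ± 0.638 under i-BET151 (0.63). At 24 h they were −1.12 ± 1.126 (−3.61 to 1.37, edgeR adjusted p = 0.465) and −2.0 ± 1.185 (−4.62 to 0.62, 0.226). In replicates 1 and 2 alone the 24 h values were −0.21 and −1.11 (edgeR adjusted p = 0.694 and 0.0745). No change of PD-L1 mRNA was thus called, and changes in either direction lie within the intervals. The parts of depth and of the spread between replicates in this were not tested.

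**Figure D2:**
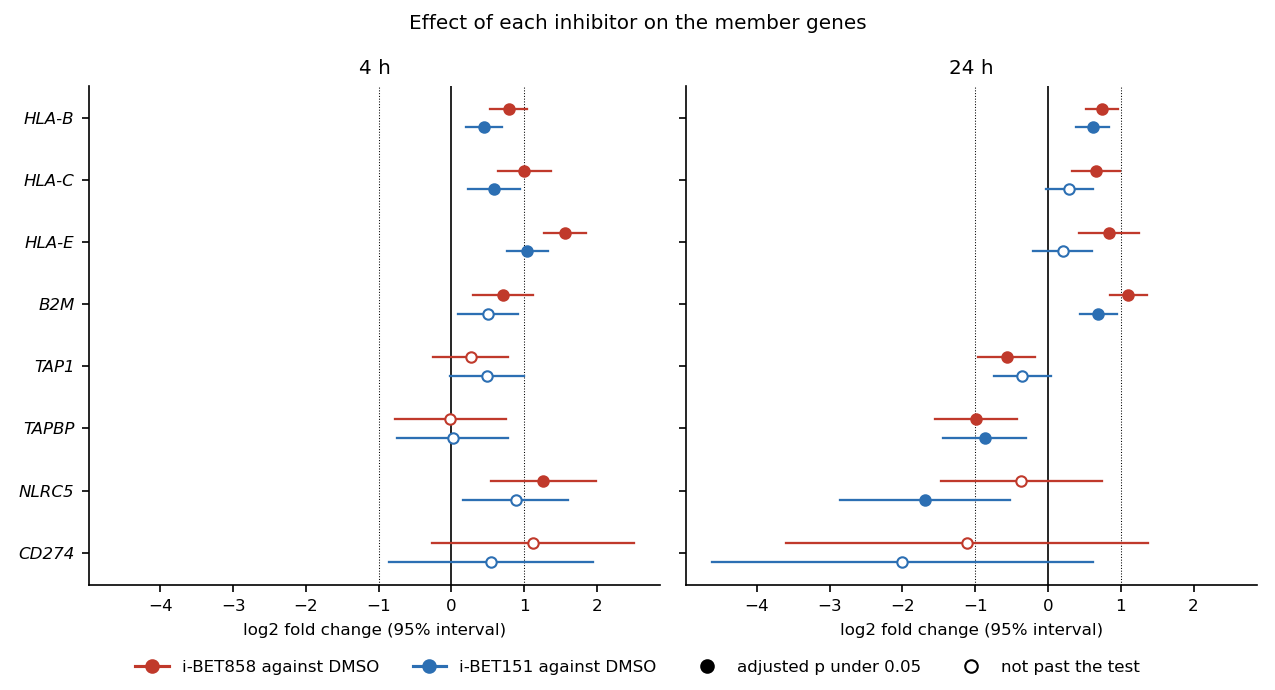
Log2 fold change against DMSO (horizontal axes, with the 95% interval) of each tested member at 4 h and 24 h. Filled points have an adjusted p under 0.05 and dotted lines mark a 2-fold change. At 4 h HLA-E is farthest right for i-BET858 (1.56), and at 24 h the heavy chains and B2M lie right of 0 while TAP1, TAPBP and NLRC5 lie left of it.

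The difference between the effects at 24 and 4 h was tested directly in a fit of all 18 libraries. Of the 8 members, 1 had a lower log2 fold change at 24 h than at 4 h under i-BET858 and none a higher one (12.6% and 14.6% of the 18154 genes tested), and 2 had a lower one under i-BET151 and none a higher one (6.82% and 6.99%). The HLA-E rise was smaller at 24 h by −0.67 ± 0.229 under i-BET858 (edgeR adjusted p = 0.0356) and by −0.82 ± 0.230 under i-BET151 (0.0238). The NLRC5 effect was lower at 24 h under i-BET151, with a change of −2.55 ± 0.622 (edgeR adjusted p = 0.011), and its change under i-BET858 was −1.59 ± 0.606 (0.0593, or 0.031 with the replicate block and 0.00146 without replicate 3). For B2M the change was 0.43 ± 0.234 under i-BET858 (edgeR adjusted p = 0.191) and 0.21 ± 0.234 under i-BET151 (0.616), and neither passed. HLA-B rose at both times, with a change of 0.00 ± 0.152 under i-BET858 (95% interval −0.32 to 0.32). With the block, 5 members passed for i-BET858 (40.3% of all genes did): besides HLA-E and NLRC5, TAP1 (−0.80, edgeR adjusted p = 0.0185) and TAPBP (−0.92, 0.00109) were lowered and B2M (0.44, 0.0119) was raised. Without replicate 3 the same 3 passed (TAP1 −0.76, TAPBP −0.89 and B2M 0.52, edgeR adjusted p = 0.0122, 0.00909 and 0.017), and B2M also passed without i-BET858 replicate 1 at 4 h (0.64, 0.045). TAP1 passed without DMSO replicate 2 or i-BET858 replicate 3 at 4 h or DMSO replicate 3 at 24 h (−0.982 to −0.915, edgeR adjusted p of 0.0292 to 0.0369). NLRC5 passed without i-BET151 replicate 3 at 4 h or i-BET858 replicate 3 or i-BET151 replicate 2 or 3 at 24 h (−2.005 to −1.587, edgeR adjusted p of 0.0238 to 0.0491). For i-BET151, 4 passed with the block (28.4% of all genes), adding TAP1 (−0.85, edgeR adjusted p = 0.0187) and TAPBP (−0.79, 0.00631) to HLA-E and NLRC5. Of these 2, TAP1 also passed without replicate 3 (−0.62, edgeR adjusted p = 0.0484) and without DMSO replicate 2 at 4 h (−1.011, 0.0469). The HLA-E change under i-BET858 was lost without DMSO replicate 1 or 2 or i-BET858 replicate 1 at 4 h and without DMSO replicate 3 or i-BET858 replicate 1 or 2 at 24 h (−0.68 to −0.50, edgeR adjusted p of 0.0588 to 0.0917). That under i-BET151 was lost without DMSO replicate 1 or 2 at 4 h and without DMSO replicate 3 or i-BET151 replicate 2 at 24 h (−0.80 to −0.71, edgeR adjusted p of 0.0524 to 0.0585).

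Under vehicle alone, 24 h was set against 4 h. None of the 8 passed edgeR's test (0.0386% of genes tested did), 2 had an unadjusted p under 0.05 and DESeq2 called none. How many of all genes had an unadjusted p under 0.05 is not given here. HLA-B was lower at 24 h (−0.24 ± 0.102, edgeR adjusted p = 0.458) and HLA-C higher (0.44 ± 0.160, 0.356), the latter passing with the replicate block (0.59, edgeR adjusted p = 0.0295). The DMSO libraries of the 2 times did not overlap for either gene, nor for NLRC5 (0.43 ± 0.430, edgeR adjusted p = 0.891). For this comparison the share of all genes without overlap is not given. CD274 had the largest value in this fit, with a wide interval (0.70, 95% interval −1.30 to 2.70, edgeR adjusted p = 0.942). With the replicate block CD274 turned to −0.238 (edgeR adjusted p = 0.935), and NLRC5 had the largest value (0.802, 0.404).

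The inhibitors were then set against each other at 1 µM, in 16 tests on 8 members at 2 times. Without the replicate block, no member passed edgeR's test at either time, where 0.971% and 0.21% of all genes did. In the same fits, 3 had an unadjusted p under 0.05 at 4 h and 4 at 24 h. These shares are for the adjusted p, and none is given for the unadjusted p. DESeq2 called 2 at each time (5.92% and 4.05% of the genes it gave an adjusted p), and edgeR with the replicate block called 2 and 3 (9.63% and 4.37% of all genes). All the members called in these fits were higher under i-BET858. At 4 h HLA-E was 0.52 ± 0.128 higher under i-BET858 (95% interval 0.23 to 0.80, edgeR adjusted p = 0.0895, or 0.00237 with the block) and HLA-B 0.34 ± 0.114 higher (0.09 to 0.59, 0.228, or 0.046 with the block). At 24 h HLA-E was 0.64 ± 0.186 higher (0.23 to 1.05, edgeR adjusted p = 0.202, or 0.0203 with the block), HLA-C 0.36 ± 0.148 (0.03 to 0.69, 0.381, or 0.0231) and B2M 0.41 ± 0.114 (0.15 to 0.66, 0.188, or 0.041). NLRC5 at 24 h differed by 1.33 ± 0.523 (0.17 to 2.48, edgeR adjusted p = 0.357), and by 0.54 without replicate 3 (0.317). Without replicate 3, HLA-E passed at 4 h (0.61, edgeR adjusted p = 0.0223; 2.29% of all genes did), and HLA-E (0.42, 0.033), HLA-C (0.32, 0.0163) and B2M (0.40, 0.00319) at 24 h (7.29%). TAP1 and TAPBP did not pass in any of these fits, with intervals of −0.73 to 0.29 and −0.80 to 0.73 at 4 h and −0.61 to 0.17 and −0.69 to 0.44 at 24 h. Differences of up to about these bounds between a bivalent and an earlier compound are therefore not excluded for the transporter and tapasin.

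**Figure D3:**
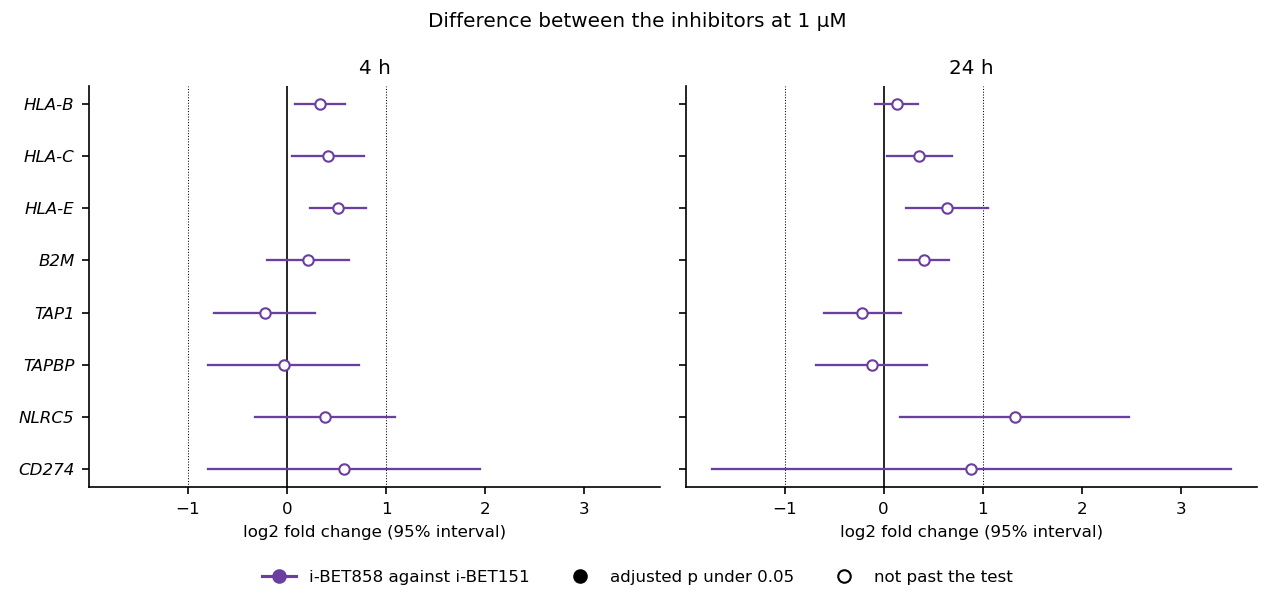
Log2 difference between i-BET858 and i-BET151 (horizontal axes, with the 95% interval) for each tested member at 4 h and 24 h. Open points did not pass the test in the fit without a replicate block, which is all of them. The intervals of HLA-E lie right of 0 at both times (0.23 to 0.80 and 0.23 to 1.05).

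The remaining class I pathway was read from a list of 18 genes, of which 16 were tested. With i-BET858, 5 rose and 1 fell at 4 h (14.5% and 16.3% of all genes tested), and 1 rose and 11 fell at 24 h (20.5% and 21.3%). With i-BET151, 1 rose and 1 fell at 4 h (7.81% and 8.43%), and none rose and 9 fell at 24 h (17.2% and 16.6%). The list's medians were 0.20 and 0.06 at 4 h and −0.59 and −0.66 at 24 h, against 0.02, 0.01, −0.01 and 0 for all genes. In replicates 1 and 2 alone, 12 fell at 24 h with either inhibitor (31% and 28.1% of all genes fell). For i-BET151 at 4 h, 7 passed with the replicate block (6 up, 1 down, against 15.6% and 17% of all genes), and 1 without DMSO replicate 3 or i-BET151 replicate 1.

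Of the genes on this list, the immunoproteasome subunits PSMB8 and PSMB10 fell most at 24 h. PSMB8, which replaces a catalytic subunit of the standard proteasome, had 23.7 ± 4.94 CPM (SD, n = 3) under DMSO, 2.88 ± 0.501 under i-BET858 and 4.05 ± 0.236 under i-BET151. It fell by 3.08 ± 0.208 (SE) on the log2 scale under i-BET858 (edgeR adjusted p = 1.97e-06) and by 2.57 ± 0.203 under i-BET151 (9.68e-06). PSMB10, another catalytic subunit, had 11 ± 3.49 CPM under DMSO, 1.95 ± 0.952 under i-BET858 and 1.45 ± 0.118 under i-BET151 (−2.54 ± 0.358 and −2.94 ± 0.366, edgeR adjusted p = 0.000235 and 0.000171). PSMB9, the third, had 4.72 ± 0.569, 1.45 ± 0.294 and 1.84 ± 0.433 CPM (−1.74 ± 0.286 and −1.38 ± 0.282, edgeR adjusted p = 0.000656 and 0.0034). At 4 h none of the 3 passed with either inhibitor (log2 fold changes of −0.13 to 0.82), although PSMB9 was called higher under i-BET151 with the replicate block and by DESeq2. PSMB8, PSMB9 and TAP1 are neighbours in the MHC region.

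The peptide trimming genes were lower at 24 h. ERAP1 had 27.6 ± 5.25 CPM under DMSO at 24 h, 11.6 ± 4.31 under i-BET858 and 14.3 ± 4.18 under i-BET151, and fell by 1.30 ± 0.282 (edgeR adjusted p = 0.00374) and by 0.97 ± 0.280 (0.0206). The latter call was lost without DMSO replicate 3 or i-BET151 replicate 1 or 2 (−0.91 to −0.78, edgeR adjusted p of 0.0752 to 0.0766). ERAP2 fell by 1.75 ± 0.489 under i-BET858 (edgeR adjusted p = 0.0143, lost without DMSO replicate 2 with −1.55 and 0.0569). Under i-BET151 ERAP2 was −1.09 ± 0.478 (edgeR adjusted p = 0.104), and it passed without replicate 3. The chaperones CALR and HSPA5 rose under i-BET858 at 4 h (0.72 ± 0.099 and 0.75 ± 0.128, edgeR adjusted p = 0.00024 and 0.00102) and fell at 24 h (−0.43 ± 0.086 and −0.58 ± 0.084, 0.00223 and 0.00027). PSME2, a subunit of the PA28 proteasome activator, did likewise (0.64 ± 0.144 and −0.59 ± 0.120, edgeR adjusted p = 0.00593 and 0.00244). IRF2, a factor of the interferon response element, fell in all 4 comparisons (−0.97 to −0.87).

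**Figure D4:**
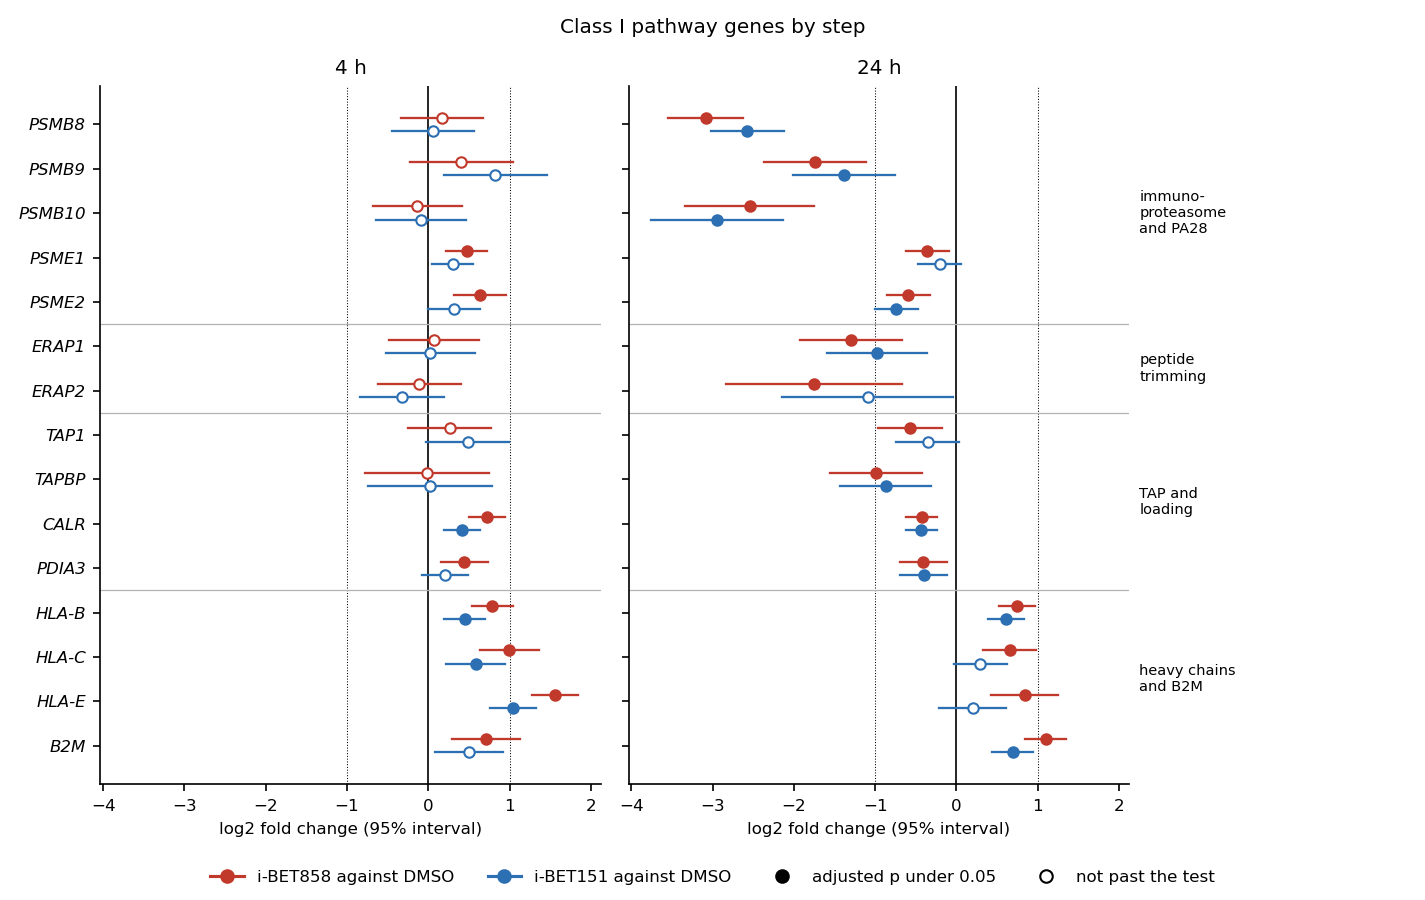
Log2 fold change against DMSO (horizontal axes, with the 95% interval) of 15 class I pathway genes grouped by step, at 4 h and 24 h. Filled points have an adjusted p under 0.05. At 24 h the immunoproteasome, trimming and loading genes lie left of 0 (PSMB8 at −3.08 and −2.57) and the heavy chains and B2M right of it.

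Regulators of class I genes were called in both directions. Of 21 tested, 4 rose and 5 fell under i-BET858 at 4 h (14.5% and 16.3% of all genes tested), 1 and 4 under i-BET151 (7.81% and 8.43%), 6 and 4 under i-BET858 at 24 h (20.5% and 21.3%), and 5 and 4 under i-BET151 (17.2% and 16.6%). With the replicate block, 14 passed for i-BET858 at 4 h (7 up and 7 down, against 22.3% and 23% of all genes) and 10 for i-BET151 (4 up and 6 down, against 15.6% and 17%), and the latter had 3 without i-BET151 replicate 1 or 2. SOCS1, a feedback inhibitor of JAK-STAT signalling, rose most, from 2.25 ± 0.303 CPM under DMSO to 24.2 ± 4.05 under i-BET858 and 10.2 ± 2.44 under i-BET151 at 4 h (3.43 ± 0.242 and 2.17 ± 0.234, edgeR adjusted p = 3.05e-06 and 0.000145). It was higher under i-BET858 than under i-BET151 at 4 h (1.26 ± 0.219, edgeR adjusted p = 0.0296). STAT2, JAK1 and JAK2, transducers of interferon signals, rose at 24 h with both inhibitors (0.52 to 1.04), and the STAT2 call under i-BET151 was lost with total library size, in the fit of 18 libraries and without DMSO replicate 2 or 3 or i-BET151 replicate 1 or 2 (0.39 to 0.54, edgeR adjusted p of 0.0615 to 0.0908). IRF1, a direct activator of class I promoters, fell at 24 h by 0.93 with each (edgeR adjusted p = 0.000852 and 0.00122). IFNGR2, a chain of the interferon γ receptor, fell in all 4 comparisons, most under i-BET858 at 24 h (−2.10 ± 0.167, from 25.8 ± 4.21 to 6.19 ± 0.597 CPM, edgeR adjusted p = 5.72e-06). That fall was larger than under i-BET151 (difference −1.01 ± 0.164, edgeR adjusted p = 0.0485). RFXAP, a subunit of the RFX complex that binds the X1 box, fell at 4 h (−2.16 ± 0.342 and −1.93 ± 0.338, edgeR adjusted p = 0.000633 and 0.00279) and was back at the vehicle level at 24 h (5.10 ± 1.28 and 4.83 ± 0.813 CPM against 4.96 ± 1.25). NFYC, of the NF-Y complex that binds the Y box, also fell at 4 h (−1.19 ± 0.143 under i-BET858, edgeR adjusted p = 0.000104).

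Genes beside CD274 or tied to its protein were tested in 5 of 8 cases. At 4 h edgeR called none with either inhibitor, although 3 (i-BET858) and 1 (i-BET151) had an unadjusted p under 0.05. No share of all genes is given for that unadjusted threshold. DESeq2 called 3 and 1 (35.3% and 21.1% of all genes), and edgeR with the replicate block 4 and 2 (45.4% and 32.7%). Leaving out replicate 3 gave 4 for i-BET858 (41.9% of all genes). Leaving out single libraries gave 1 (i-BET858 replicate 1), 2 (i-BET858 replicate 3) and 3 (i-BET151 replicate 3) for i-BET858 and 1 (i-BET858 replicate 2) for i-BET151. These last counts stand without the share of all genes in the same fits. At 24 h 3 rose and none fell with each (20.5% and 21.3% of all genes for i-BET858, 17.2% and 16.6% for i-BET151): CMTM6, which protects PD-L1 protein from degradation (0.68 ± 0.087 and 0.72 ± 0.087, edgeR adjusted p = 0.000128 and 0.000144), and RIC1 and JAK2, which lie on the same chromosome arm (0.83 and 0.90 under i-BET858, 0.74 and 1.04 under i-BET151). PLGRKT, which lies near CD274, and CMTM4 did not pass edgeR's test at 24 h (−0.203 and −0.284 under i-BET858, −0.128 and −0.073 under i-BET151). PDCD1LG2, which encodes PD-L2, had too few counts to be tested, as did CD80 and PDCD1.

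Other ligands that tumour cells show to immune cells were counted in a list of 14. At 4 h 5 rose and none fell under i-BET858 (14.5% and 16.3% of all genes tested), of 14 tested. These 5 were MICA, ULBP1, ULBP2, ULBP3 and RAET1G. RAET1G was near the floor under DMSO, and no support is drawn from its part in this count. With i-BET151, 3 rose and none fell (7.81% and 8.43%), of 14 tested. At 24 h 4 rose and 6 fell under i-BET858 (20.5% and 21.3% of all genes), and 2 rose and 5 fell under i-BET151 (17.2% and 16.6%), of 13 tested. The 5 at 4 h became 3, losing MICA and RAET1G, without DMSO replicate 1 or i-BET858 replicate 1 or 2. Under i-BET151, the block gave 7 at 4 h (4 up and 3 down, against 15.6% and 17% of all genes), and replicates 1 and 2 alone gave 7 at 4 h (25.9% of all genes) and 11 at 24 h (54.2%). The risers at 4 h were ligands of NKG2D, the activating receptor of natural killer cells. ULBP1 went from 0.934 ± 0.123 CPM to 7.24 ± 1.74 under i-BET858 and 5.03 ± 0.429 under i-BET151 (2.95 ± 0.271 and 2.42 ± 0.268, edgeR adjusted p = 1.63e-05 and 0.000167), and ULBP3 rose by 1.82 ± 0.161 and 1.1 ± 0.159 (1.26e-05 and 0.000849). RAET1G, a ligand of the same family, had 0.0901 ± 0.0855 CPM under DMSO at 4 h, near the floor of 3 counts, and 1.18 ± 0.338 under i-BET858. Its call there (edgeR adjusted p = 0.0208) was lost without DMSO replicate 1 or 2 or i-BET858 replicate 1 or 2 (0.0515 to 0.0957). It did not pass under i-BET151 at 4 h (1.11 ± 1.082, edgeR adjusted p = 0.553), but did at both times without replicate 3. At 4 h only i-BET858 had all its libraries above the floor, so no support is drawn from the RAET1G test. MICB did not pass at 4 h with either (0.50 ± 0.621 and −0.36 ± 0.631, edgeR adjusted p = 0.594 and 0.759). MICA, another such ligand, had 17.2 ± 0.943 CPM under DMSO at 24 h, 49.0 ± 3.06 under i-BET858 and 39.2 ± 5.37 under i-BET151 (1.47 ± 0.122 and 1.17 ± 0.122, edgeR adjusted p = 7.37e-06 and 5.65e-05). VTCN1, the checkpoint ligand B7-H4, fell at 24 h from 30.4 ± 5.44 CPM to 1.12 ± 0.546 and 1.32 ± 0.980 (−4.82 ± 0.492 and −4.56 ± 0.484, edgeR adjusted p = 2.76e-05 and 6.31e-05). CD47, the signal that restrains macrophages, fell by 1.08 ± 0.085 and 0.83 ± 0.085 (edgeR adjusted p = 5.26e-06 and 4.93e-05), and CD276, or B7-H3, by 0.70 ± 0.139 and 0.60 ± 0.139 (0.00215 and 0.00669).

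**Figure D5:**
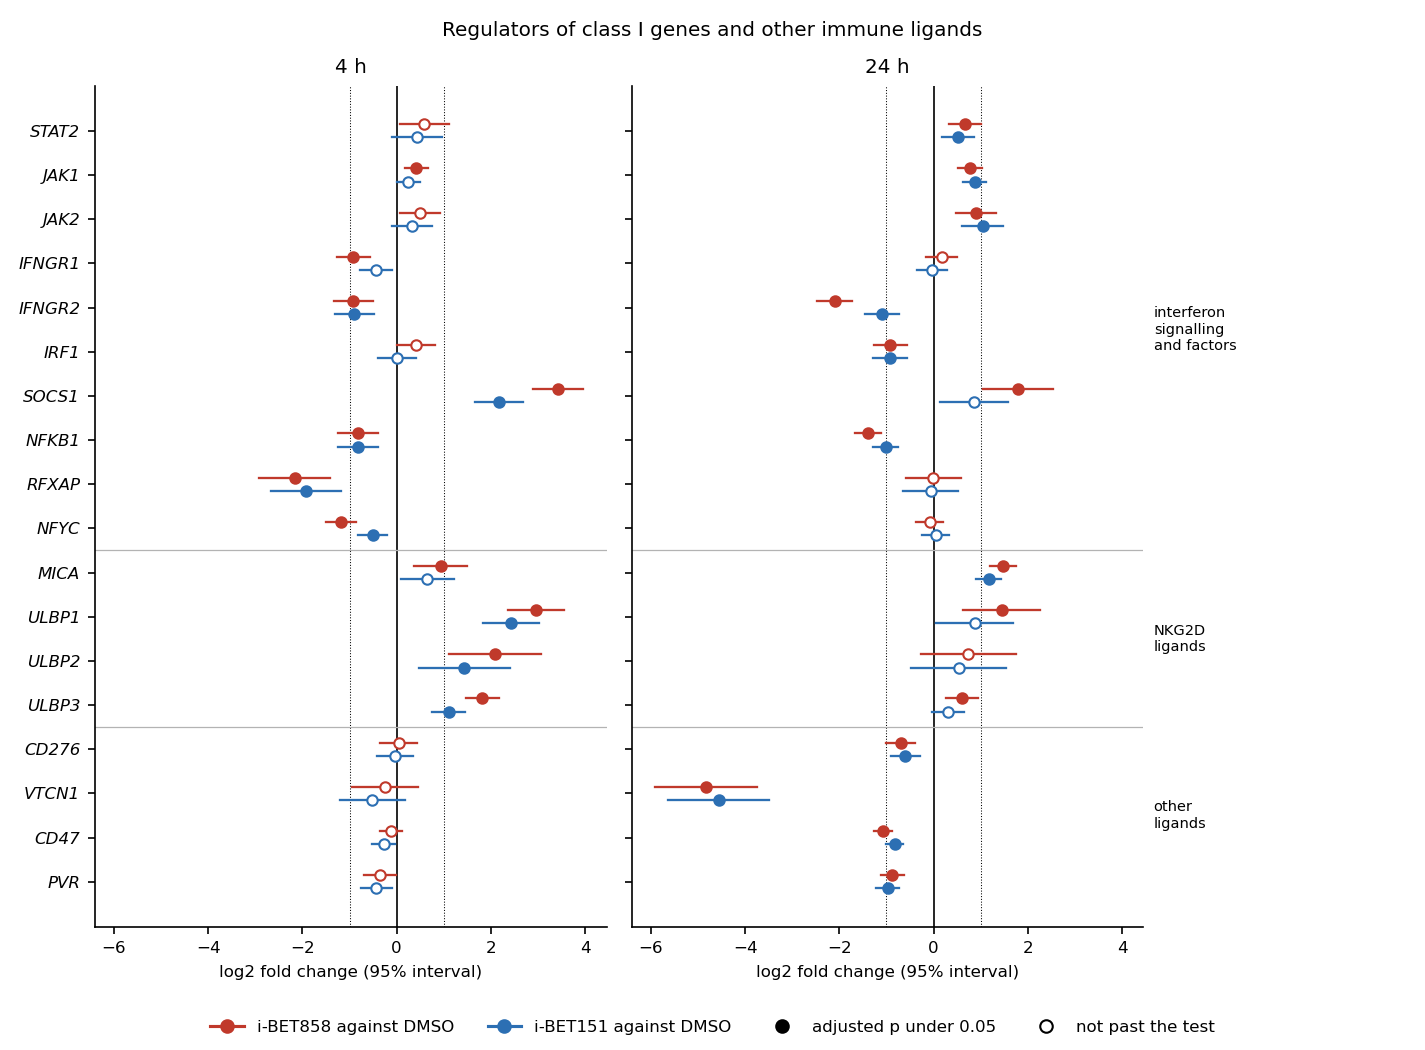
Log2 fold change against DMSO (horizontal axes, with the 95% interval) of 10 regulators of class I genes and 8 other immune ligands at 4 h and 24 h. Filled points have an adjusted p under 0.05. SOCS1 and the 4 NKG2D ligands drawn (MICA and ULBP1 to ULBP3) lie right of 0 at 4 h, and VTCN1 is farthest left at 24 h (−4.82 and −4.56).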

How the data were processed

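The deposited values are raw counts per gene of 18 poly-A libraries. According to the study's methods and the submitters' processing notes, paired-end reads went through FastQC, STAR alignment on GRCh38 and STAR's own gene counting before the authors deposited the tables. Versions, the gene annotation and the strand setting are not given in the sources used here. The count tables hold 1 time point each, and the time was taken from the table's name. Of 58825 genes, 58472 (99.4%) matched GENCODE 44.

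The 9 libraries of a time point were modelled in edgeR 4.0.16 under R 4.3.3 (TMM, edgeR's filter on low counts by group, quasi-likelihood test, 3 groups in 1 fit), with Benjamini-Hochberg adjustment over all genes tested. An adjusted p under 0.05 counts as passing the test, and "rose" and "fell" are used of such transcripts. The study names DESeq2 with an FDR threshold, and DESeq2 1.42.0 was an alternative. Changes of effect and the vehicle comparison came from 1 fit of the 18 libraries. SE is the log2 fold change divided by the square root of the F statistic, and intervals are 95%. Between replicates, counts differed by 4.47 to 72.6 times the counting variance. After group means were removed, libraries with the same replicate number correlated at 0.141 to 0.365 (4 h) and 0.161 to 0.352 (24 h) over 9 pairs each. The medians for other numbers were −0.225 and −0.247, so the numbers were taken to pair the libraries. The reported fits nevertheless left this pairing out. It was used only in the alternative with the replicate block.

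The members and lists were chosen with earlier results of these data known. All members are named, and any gene of a list may be named with its values. A gene of the regulator list is not reported here and is left out of that list's counts. The alternatives were DESeq2, its size factors, total library size, no filter, at least 10 counts in every library, the replicate block, each library or replicate 3 left out, fold thresholds of 1.5 and 2, and other sets of libraries in the fit. A fit of the 2 DMSO groups alone, and all alternatives for the wider lists, were added after the data were seen. Motifs were searched in RefSeq promoters. No library was dropped from the reported fits.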

Additional observations from a re-analysis of the deposited data

Results flagged for a closer look

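Of the members' effects, 3 differed between 4 and 24 h in the direct test of the difference. The changes come from the fit of 18 libraries and the values at each time from the separate fits, so they need not match exactly. The HLA-E effect of i-BET858 changed by −0.67 on the log2 scale (edgeR adjusted p = 0.0356), from 1.56 at 4 h to 0.84 at 24 h. The HLA-E effect of i-BET151 changed by −0.82 (edgeR adjusted p = 0.0238), from 1.04 to 0.20. The NLRC5 effect of i-BET151 changed by −2.55 (edgeR adjusted p = 0.011), from 0.88 to −1.69. Each effect set 3 treated libraries against 3 vehicle libraries, and both inhibitors share the vehicle libraries. Single libraries were not screened as outliers, since groups of 3 are too small for that screen.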

How the results depend on the processing

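Over 30 other settings (19 that left out libraries and 11 others), the 72 log2 fold changes of members were recomputed 1456 times. Of these, 1322 kept their direction and their side of the threshold, 40 lost the call, 57 gained it and 37 changed sign, none of the latter from a value that passed the test. The cause of each move was not tested, except that a stricter fold threshold removes calls by construction.

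With a fold change of at least 2 required, i-BET858 against DMSO kept 2 members at 4 h and 1 at 24 h. Under the same requirement i-BET151 against DMSO kept 1 at each time. Among the changes of effect, 0 were kept for i-BET858 and 1 for i-BET151. Shares of all genes at this fold threshold are not given in this report. These member counts are therefore not set against a background here, and no result about the members is read from them. With the replicate block, 5 members passed for i-BET151 at 4 h (32.7% of all genes), 2 and 3 for i-BET858 against i-BET151 at 4 and 24 h (9.63% and 4.37%), 5 and 4 for the changes of effect with i-BET858 and i-BET151 (40.3% and 28.4%), and 1 for DMSO at 24 h against 4 h (7.65%). The block changed no other count by more than 1.5 times. For i-BET858 against i-BET151, DESeq2 called 2 at each time (5.92% and 4.05% of the genes it gave an adjusted p) and no filter 1 at each. For the change of the i-BET858 effect, DESeq2 called 3 (32% of the genes it gave an adjusted p). Its size factors, no filter and at least 10 counts in every library called 2 each there. For settings other than DESeq2 in these 2 comparisons, the shares of all genes are not given.

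With libraries left out, members past the test ranged from 3 to 5 (i-BET858 at 4 h), 1 to 4 (i-BET151 at 4 h), 5 to 7 (i-BET858 at 24 h), 2 to 7 (i-BET151 at 24 h), 0 to 1 and 0 to 3 (i-BET858 against i-BET151 at 4 and 24 h), 0 to 5 and 1 to 3 (changes with i-BET858 and i-BET151), and 0 to 0 (DMSO). The 7 with i-BET151 at 24 h, the 3 between inhibitors at 24 h and the 5 in the change with i-BET858 came without replicate 3, where 54.2%, 7.29% and 40.6% of all genes passed. For fits without a single library, the shares of all genes are not given in this report.

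TAPBP with i-BET858 at 4 h was 0.003 with at least 10 counts in every library and −0.346 to 0.168 with libraries left out. TAPBP with i-BET151 at 4 h was −0.052 with total library size, −0.067 with the block and −0.495 to 0.265 with libraries left out. TAPBP between inhibitors was 0.024 with the block at 4 h, and −0.361 to 0.476 (4 h) and −0.395 to 0.094 (24 h) with libraries left out, where B2M at 4 h was −0.003 to 0.349. For DMSO at 24 h against 4 h, HLA-E was 0.007 with DESeq2 and with its size factors, 0.031 with total library size, 0.026 with at least 10 counts, 0.078 with the block, 0.012 with only the 2 DMSO groups and −0.113 to 0.092 with libraries left out. There, CD274 was 0.70 as reported and −0.238 with the block, and with libraries left out B2M was −0.145 to 0.117, TAP1 −0.012 to 0.380 and TAPBP −0.339 to 0.049. Counts in a library were low for CD274 (0 to 30) and NLRC5 (8 to 126).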

Other observations

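Likeness of expression was described over all 18 libraries, which share the treatment and the time, so that no p is given. Among 12443 or 12444 genes searched, the pattern of B2M was most like those of UCHL1 (Pearson r of log2 CPM = 0.971), IMPDH2 (0.970) and H2AC6 (0.968). That of TAP1 was most like TGDS (0.886), AMN (0.860) and COMMD10 (0.855), and that of CD274 most like TAPBPL (0.856), MPPE1 (0.852) and GALM (0.849). TAPBPL encodes TAPBPR, a tapasin-related peptide editor of class I molecules. It was −0.76 and −0.78 on the log2 scale at 24 h with i-BET858 and i-BET151 (edgeR adjusted p = 0.0517 and 0.0549), and it passed with both under DESeq2 and with the replicate block. Without replicate 3 it passed with i-BET151 but not with i-BET858. Among the members, HLA-B and HLA-E had r = 0.804 and B2M and TAPBP r = −0.728.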
